A study of Homo sapiens with 2 samples.

Results

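IGF2R, DAB2, NPC2 and CD2AP were 4 of the 2792 genes on the array table, and all 93 probe sets annotated to 1 of these symbols alone were used, of 45200 in all. IGF2R had 52 probe sets, CD2AP 19, DAB2 17 and NPC2 5. A probe set is a small group of oligonucleotides that covers roughly 1 exon, so each gene was read several times on the same array. The genes were picked because they differed between these arrays, so their differences are described here and carry no test.

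The cells were HepG2, a line derived from a human liver tumour, grown on collagen-coated plates. One culture was transfected with an antisense LNA (locked nucleic acid, a stabilised oligonucleotide chemistry) directed at TUC338, a noncoding RNA that overlaps an ultraconserved element. The other received a control LNA. There was 1 array per group, so no difference below can be set against a spread between cultures, and no p-value is given. Per the design text the loss of TUC338 was verified by experiment; no probe set carried its name, so its level was not analysed here.

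The 4 genes belong to the machinery that carries proteins from the cell surface and the Golgi to endosomes and lysosomes. IGF2R, the cation-independent mannose-6-phosphate receptor, binds newly made lysosomal enzymes through their mannose-6-phosphate tag and delivers them to endosomes, and at the surface it takes up insulin-like growth factor 2 for breakdown. DAB2 is an adaptor that links receptors of the LDL receptor family to clathrin and to the motor myosin VI. NPC2 is a small soluble lysosomal protein that carries the tag, binds cholesterol and hands it to the membrane protein NPC1. CD2AP is a scaffold with SH3 domains that joins receptors to Cbl ubiquitin ligases and to actin capping protein. In liver cells this traffic serves the uptake of lipoproteins and the supply of lysosomes.

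Over all probe sets the knockdown array had a median intensity of 507, against 422 in the control. The median gene was 0.28 higher in the knockdown on the log2 scale, or 1.22-fold, as a mean over its probe sets. Values called relative to the median gene have that 0.28 subtracted, and deposited values do not. The offset was 0.30 in the dimmest of 3 equal classes of probe sets, 0.27 in the middle class and 0.22 in the brightest. Of 25 hepatocyte and HepG2 markers, 10 were in the table, and 9 of the 10 lay at or above the median gene in mean log2 intensity, with ALB at 12.55 in the knockdown and 12.35 in the control. Set against the median gene, ITIH3 was the marker of this list past 1.5-fold (0.64), CPS1 was the lowest (-0.42), and the median of the 10 was -0.015. The leukocyte and endothelial markers listed were not analysed here. Of 8 fibroblast and stellate markers, 3 were in the table. The mean log2 intensities of COL1A1, PDGFRB and ACTA2 were 7.89, 8.17 and 10.20 in the knockdown and 8.51, 7.66 and 9.87 in the control. COL1A1 was the marker of this list that was lower in the knockdown, and the part of such cells in the results was not tested.

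Among the 4 genes, IGF2R, DAB2 and NPC2 were lower in the knockdown and CD2AP was higher. IGF2R had a mean log2 intensity of 9.68 in the knockdown against 10.52 in the control. That of DAB2 was 8.70 against 9.39, that of NPC2 9.85 and 10.18, and that of CD2AP 9.71 and 8.77. Relative to the median gene, IGF2R differed by -1.13 ± 0.27 and DAB2 by -0.98 ± 0.28, which is 45.8% and 50.8% of control. NPC2 differed by -0.62 ± 0.20, or 65.1% of control, and CD2AP by 0.65 ± 0.28, or 157% of control. Each ± is the SD over the gene's probe sets on the same arrays and is no replicate error. In deposited values the same genes stood at 55.8%, 61.8%, 79.2% and 191% of control. The offset between the arrays therefore enlarges the 3 decreases and shrinks the increase when it is removed.

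Over 2742 genes with at least 4 probe sets, 3.57% had a mean that lay 1.5-fold or more under the median gene and 2.3% one that lay 1.5-fold or more over it, which is 98 and 63 genes. IGF2R, DAB2 and NPC2 were among the former and CD2AP among the latter. In deposited values that split became 25 lower (0.912%) and 359 higher (13.1%), and NPC2, at 1.26-fold, was no longer among the lower genes. IGF2R was the member past 2-fold by its mean, at 2.18-fold, as were 0.365% of genes in that direction, and DAB2 lay just short of it at 1.97-fold. Counting the gene itself, 5 genes had a mean as low as IGF2R, 11 one as low as DAB2, 87 one as low as NPC2, and 44 one as high as CD2AP. IGF2R and DAB2 thus lay in the far tail of the table, while NPC2 and CD2AP lay close to the 1.5-fold line. Because the genes were chosen from this contrast, nothing is read from these shares.

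**Figure D1:**
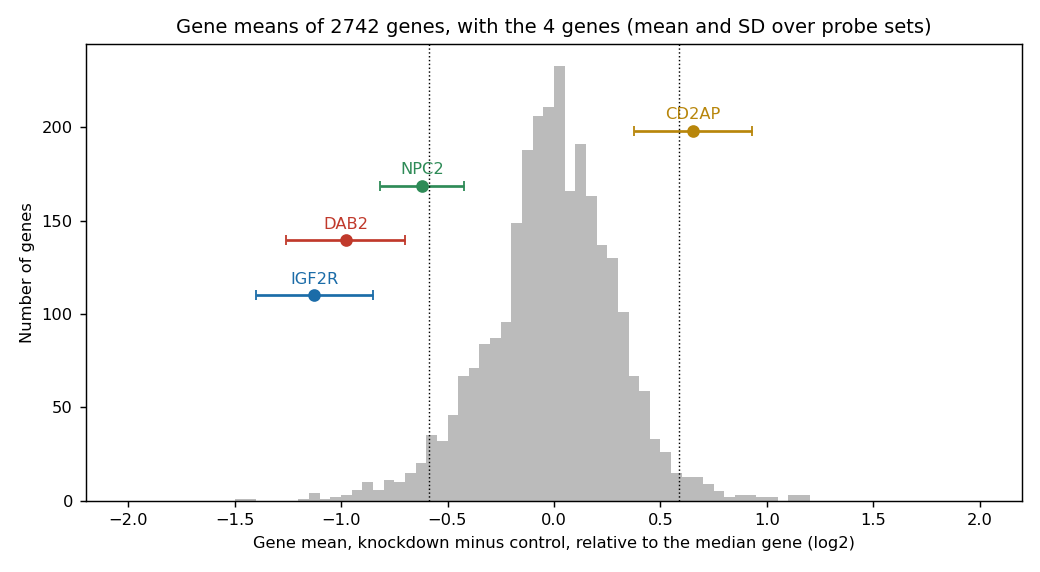
Histogram of the mean difference, knockdown minus control relative to the median gene (log2), over 2742 genes with at least 4 probe sets; points and bars give the mean and SD over probe sets of the 4 genes, placed at arbitrary heights, and dotted lines mark 1.5-fold. IGF2R (-1.13) and DAB2 (-0.98) lie in the lower tail, NPC2 (-0.62) and CD2AP (0.65) just past the dotted lines.

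The bases before the start site of each gene are shown so that the 3 lower genes can be compared with CD2AP. The sequences are from RefSeq (GRCh38.p14) and run 5′ to 3′ on the strand of the gene over the 250 bases before its annotated start: IGF2R at chr6:159968832-159969081 (plus strand), DAB2 at chr5:39424981-39425230 (minus strand), NPC2 at chr14:74493513-74493762 (minus strand) and CD2AP at chr6:47477539-47477788 (plus strand). Capitals mark CACGTG (an E-box, also the core of the element bound by the lysosomal gene regulator TFEB), GGGCGG (a GC box) and CCAAT, each on either strand, so that CCGCCC and ATTGG are marked too.
IGF2R: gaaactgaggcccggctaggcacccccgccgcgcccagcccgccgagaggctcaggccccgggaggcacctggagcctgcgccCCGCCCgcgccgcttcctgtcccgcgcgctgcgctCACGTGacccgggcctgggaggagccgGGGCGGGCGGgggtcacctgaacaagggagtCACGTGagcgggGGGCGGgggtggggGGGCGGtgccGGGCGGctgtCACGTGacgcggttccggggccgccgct
DAB2: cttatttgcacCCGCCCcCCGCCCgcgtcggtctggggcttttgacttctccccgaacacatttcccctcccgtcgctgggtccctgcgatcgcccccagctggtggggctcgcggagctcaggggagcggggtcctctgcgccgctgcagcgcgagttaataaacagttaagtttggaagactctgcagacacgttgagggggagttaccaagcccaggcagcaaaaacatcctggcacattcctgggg
NPC2: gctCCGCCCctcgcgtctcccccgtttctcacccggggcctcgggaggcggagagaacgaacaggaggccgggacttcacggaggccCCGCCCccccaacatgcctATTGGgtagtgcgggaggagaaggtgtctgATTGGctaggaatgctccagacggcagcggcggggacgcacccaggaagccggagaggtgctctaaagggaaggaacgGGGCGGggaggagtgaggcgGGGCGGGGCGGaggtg
CD2AP: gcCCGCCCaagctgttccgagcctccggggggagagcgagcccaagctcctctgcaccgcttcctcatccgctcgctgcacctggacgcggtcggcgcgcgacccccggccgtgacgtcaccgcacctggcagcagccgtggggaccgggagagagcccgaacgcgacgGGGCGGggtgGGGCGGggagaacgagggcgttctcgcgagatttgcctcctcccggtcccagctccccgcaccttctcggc
IGF2R held CACGTG at 132, 74 and 28 bases before its start, and the windows of DAB2, NPC2 and CD2AP held none. Of 27305 gene starts in the RefSeq table, 6.49% held this motif at least once in the same window and 24 held it at least 3 times. Among the 2372 genes of the array table with a window, 238 held it at least once and 4, IGF2R among them, at least 3 times. GGGCGG occurred 6 times in IGF2R, 5 in NPC2, 3 in CD2AP and 2 in DAB2, with overlapping copies counted, against 42.3% of all windows and 69.1% of those of the array table's genes with at least 1. CCAAT occurred in the window of NPC2, 2 times, and not in the other 3 (33.0% of all windows and 34.1% of those of the array table hold it). TGACTCA, an AP-1 site, was in none of the 4 (4.16% of all, 1.69% of those of the array table). IGF2R had 33 CpG dinucleotides, CD2AP 32, NPC2 22 and DAB2 18, where the median window had 11. That median is over all windows and not over those of the array table's genes alone. In the windows shown, no motif searched was held by the 3 lower genes and missing from CD2AP. NPC2 had 2 windows in the RefSeq table, and only the 1 shown was searched. These matches describe letters in a window and were not tied to the intensities.

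IGF2R, the receptor of the set, had the most probe sets, 52, all read on the same arrays. Their intensities ran from 160 to 2905 with a median of 840 in the knockdown, and from 217 to 4908 with a median of 1620 in the control. Every probe set was lower on the knockdown array in deposited values, as were all probe sets of 1.16% of the 1804 genes with at least 10. All 52 thus also lay below the median gene, as in 6.65% of those genes. Relative to the median gene, 50 of the 52 were at least 1.5-fold lower and 39 at least 2-fold lower, against 8.19% and 1.13% of all probe sets with 1 symbol. The decrease was therefore not carried by a few exons.

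The IGF2R probe sets were next placed in the order of their numbers. Across neighbouring genes on 1 strand, these numbers rose with genome position in 98.9% of 1136 pairs on the plus strand and 98.7% of 1191 on the minus strand. How they run inside a gene is stated in no source used here. The largest decrease was at the 21st of the 52 probe sets, which read 602 in the knockdown against 1521 in the control (-1.62 relative to the median gene). The smallest decreases were near the ends of the series. The first probe set read 344 in the knockdown and 368 in the control (-0.38), and the 51st read 426 and 452 (-0.37).

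Among the 6 lowest-numbered IGF2R probe sets, probe set 5 alone was more than 2-fold lower (-1.02), and the other 5 lay between -0.38 and -0.78. From the 7th to the 50th the differences lay between -1.62 and -0.61, with the 44th as the smallest (2905 in the knockdown, 3645 in the control). The first, middle and last runs of 18, 17 and 17 probe sets had means of -1.10 ± 0.34, -1.19 ± 0.19 and -1.09 ± 0.27 (SD over probe sets). The runs differed by less than these SDs, and the middle run was the most even. The 45 probe sets at or above the median intensity of the table had a mean of -1.18 ± 0.21 and the 7 dimmer ones one of -0.79 ± 0.41, so the dim probe sets were both smaller in difference and more scattered.

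**Figure D2:**
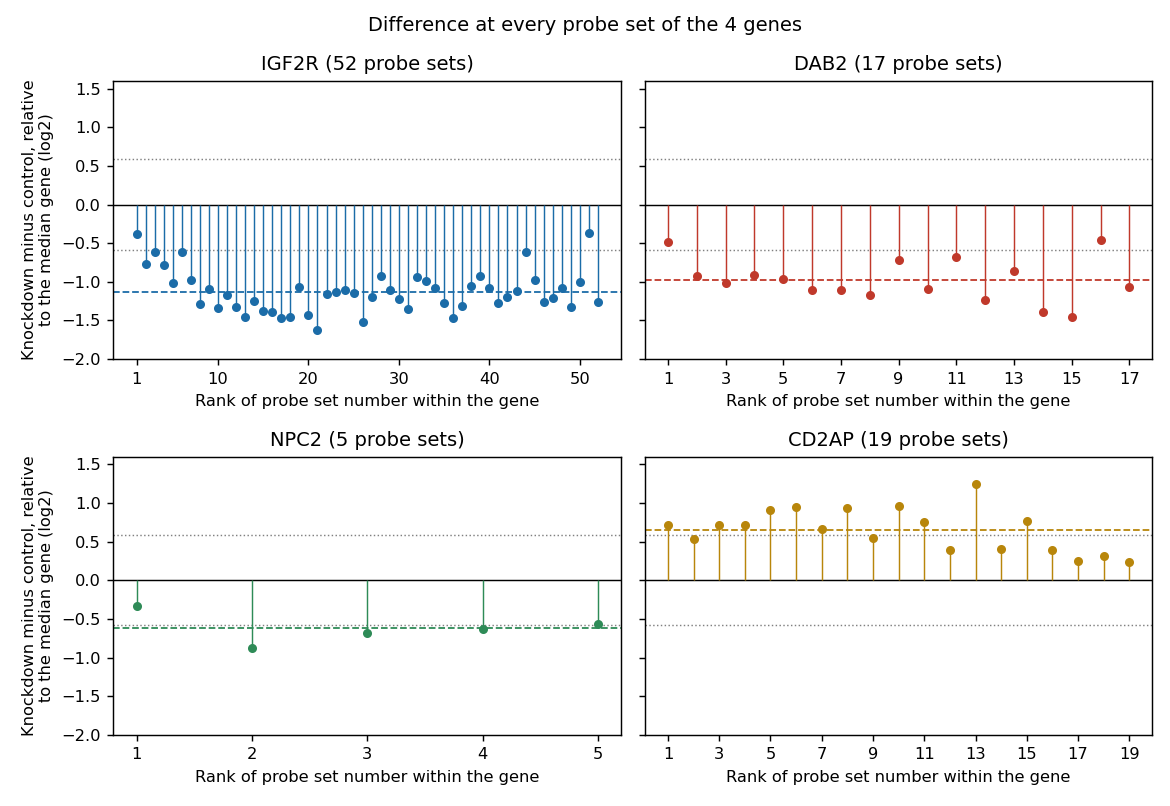
Difference between knockdown and control relative to the median gene (log2) at each probe set, in the order of probe set numbers, for IGF2R, DAB2, NPC2 and CD2AP; the dashed line is the gene mean and dotted lines mark 1.5-fold in either direction. All 52, 17 and 5 probe sets of IGF2R, DAB2 and NPC2 lie below 0 and all 19 of CD2AP above it, with the smallest IGF2R differences at the 1st and 51st.

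DAB2, the clathrin adaptor, was lower on the knockdown array at all of its 17 probe sets, in deposited values as well. In deposited values this held for 1.16% of the 1804 genes with at least 10 probe sets. Intensities ran from 163 to 1205 with a median of 412 in the knockdown, and from 244 to 2218 with a median of 632 in the control. Relative to the median gene, 15 of 17 were at least 1.5-fold lower and 9 at least 2-fold lower, against 8.19% and 1.13% of all probe sets with 1 symbol. The 14th and 15th probe sets stood lowest: the former read 496 in the knockdown and 1070 in the control (-1.39), and the latter 412 and 929 (-1.46). Next to them, the 16th read 262 and 295 (-0.45), the smallest decrease of the gene, followed by the first, with 348 and 399 (-0.48).

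The extremes of DAB2 were thus neighbours in the series, and its last run of 5 probe sets was the most scattered. The 3 runs had means of -0.90 ± 0.22, -1.0 ± 0.24 and -1.05 ± 0.41. The brightest probe set, the 8th, read 1205 and 2218, a difference of -1.16. The 9 brighter probe sets, set against the median of the table, had a mean of -1.11 ± 0.23, and the 8 dimmer ones one of -0.83 ± 0.27. In both IGF2R and DAB2 the difference was smaller where the signal was dim.

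NPC2, a cargo of mannose-6-phosphate receptors, had 5 probe sets, too few to describe a course along the gene. The first read 242 in the knockdown and 250 in the control, the second 1385 and 2087, the third 2528 and 3334, the fourth 1312 and 1671 and the last 600 and 733. All 5 were lower in the knockdown in deposited values, as were all probe sets of 2.15% of genes with at least 4. Relative to the median gene that held for 9.01% of genes. The first, also the dimmest, differed by -0.05 in deposited values and is close to equal on both arrays. Relative to the median gene the 5 differences were -0.33, -0.88, -0.68, -0.63 and -0.57, so 3 of 5 were at least 1.5-fold lower and none 2-fold. Of all probe sets with 1 symbol, 8.19% and 1.13% were. The 4 probe sets at or above the median intensity of the table had a mean of -0.69 ± 0.13. The mean of all 5, -0.62, lay just past the 1.5-fold line.

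CD2AP, the actin-linked scaffold, was the member that was higher. Its intensities ran from 276 to 3124 with a median of 854 in the knockdown, and from 144 to 1522 with a median of 427 in the control. All 19 probe sets were higher in the knockdown in deposited values, which was so for 27.4% of the 1804 genes with at least 10 probe sets. All 19 also lay above the median gene, as in 6.1% of those genes, and 11 of them were at least 1.5-fold and 1 at least 2-fold higher relative to it. Of all probe sets with 1 symbol, 6.15% and 0.707% were.

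The course along CD2AP was uneven. The largest increase was at the 13th probe set, with 1170 in the knockdown and 404 in the control (1.25 relative to the median gene). The brightest, the 11th, read 3124 and 1522 (0.75). The smallest were the 19th, with 1286 and 895 (0.24), the 17th, with 1383 and 954 (0.25), and the 18th, with 276 and 182 (0.31), which stand together at the end. The first run of 7 probe sets had a mean of 0.74 ± 0.15, the middle run of 6 one of 0.81 ± 0.31 and the last run of 6 one of 0.39 ± 0.19. The last run was thus lower than both others by more than its own SD, though still above the median gene throughout. Bright and dim probe sets had like means, 0.67 ± 0.31 over 13 and 0.62 ± 0.23 over 6, so the low values at the end were not those of dim probe sets as a class.

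**Figure D3:**
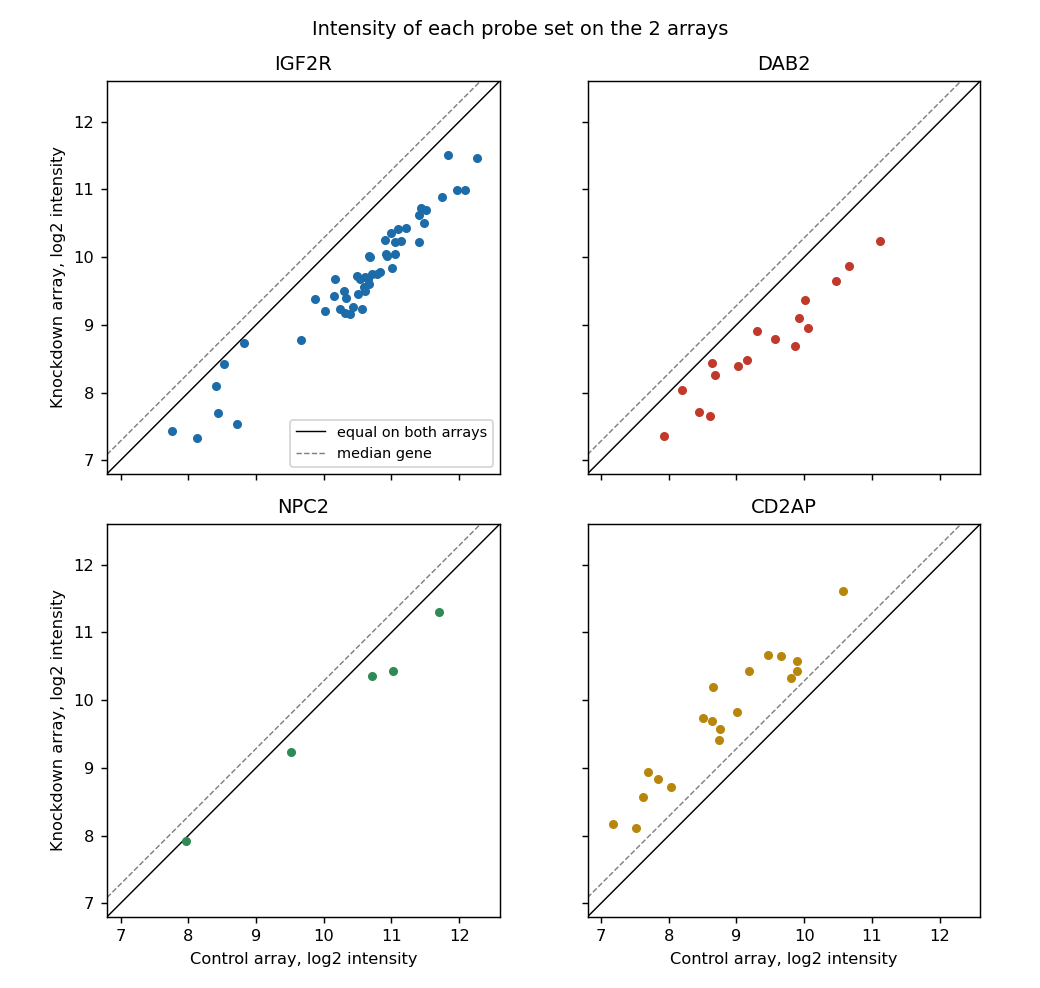
Log2 intensity of each probe set on the control array (x) and the knockdown array (y) for the 4 genes; the solid line marks equal values and the dashed line the median gene, 0.28 above it. The points of IGF2R, DAB2 and NPC2 lie below the solid line and those of CD2AP above the dashed line, from the dimmest to the brightest probe set.

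Within each gene the SD of the differences, 0.27 for IGF2R, 0.28 for DAB2, 0.20 for NPC2 and 0.28 for CD2AP, was near or below the SD of 0.28 pooled over all genes. The probe sets of the 4 genes thus scattered about as much as those of other genes. The ranges of IGF2R (-1.62 to -0.37) and DAB2 (-1.46 to -0.45) overlapped widely, so these genes are not ordered by size here. The range of NPC2 (-0.88 to -0.33) overlapped both.

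The genes with the most similar difference were sought among 955 genes with at least 10 probe sets and a mean intensity at or above that of the median gene, by the distance between gene means over the 2 arrays. Nearest to IGF2R were TFDP1 (-1.11 ± 0.34 over 11 probe sets), ANXA4 (-1.19 ± 0.38 over 13) and TNRC6A (-1.03 ± 0.41 over 28). Nearest to DAB2 were TNRC6A, RNF43 (-0.92 ± 0.18 over 12) and SHCBP1 (-0.92 ± 0.20 over 10). Nearest to NPC2 were LRP5 (-0.63 ± 0.25 over 19), MCM3 (-0.63 ± 0.28 over 16) and PRRC1 (-0.61 ± 0.20 over 11). Nearest to CD2AP were CALCOCO2 (0.64 ± 0.31 over 12), the hepatocyte marker ITIH3 (0.64 ± 0.20 over 19) and SDAD1 (0.64 ± 0.25 over 20). With 1 array per group, likeness means only a similar single difference.

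The partners of the 4 genes were taken from 10 lists. Of their 343 other genes, 82 were in the table with at least 4 probe sets. Relative to the median gene, 6 of the 82 (7.32%) lay 1.5-fold or more lower, where 3.57% of all genes were, and 1 (1.22%) was at least 1.5-fold higher, where 2.3% were. The 6 were LRP1, LRP5, PLAUR, ABCA2, PIK3R1 and TGFB1, and the 1 was ACP2. Of these, LRP1 and LRP5 had a mean level at or above that of the median gene. PLAUR, ABCA2, PIK3R1, TGFB1 and ACP2 lay below that level. The median of the 82 was -0.04, beside 0.0020 for all genes with at least 4 probe sets, and 48 lay below the median gene (58.5%, beside 49.7% of all genes) and 34 above. In deposited values 1 of the 82 was at least 1.5-fold lower, PLAUR, and 4 were at least 1.5-fold higher, ACP2, CAPZA1, STX16 and VPS45. The 82 ranged from -0.88 to 0.61. By their means, IGF2R and DAB2 lay below the lowest of them, CD2AP above the highest and NPC2 within their range. The gaps from DAB2 to PLAUR (-0.88 ± 0.34) and from CD2AP to ACP2 (0.61 ± 0.34) were smaller than these SDs. The members were picked from this contrast, so nothing is read from their places. For the listed genes, differences and counts of probe sets are relative to the median gene unless called deposited.

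Other sorting receptors and the tagging enzymes came first. SORL1, a receptor of the sortilin family, lay at 0.02 ± 0.23 over 51 probe sets, with a mean log2 intensity of 9.13 in the knockdown and 8.83 in the control. SCARB2, the receptor of the lysosomal enzyme glucocerebrosidase, lay at -0.09 ± 0.26 over 15. The genes of the enzyme that starts the mannose-6-phosphate tag, GNPTAB (0.08 ± 0.25) and GNPTG (0.02 ± 0.22), were also close to the median gene. UAP1, which makes the sugar nucleotide UDP-GlcNAc, lay at -0.57 ± 0.34 over 10 probe sets. LRP1, the remaining receptor of this list, was past 1.5-fold at -0.60 ± 0.17 and is described with the cargo receptors.

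Of 14 further genes listed as lysosomal cargo, none was at least 1.5-fold lower and 1 was higher, and their median was -0.02. Whether IGF2R delivers the product of each listed gene, that of ACP2 included, was not tested. ACP2, a lysosomal acid phosphatase, lay above the median gene by 0.61 ± 0.34, with each of its 9 probe sets above it and mean log2 intensities of 8.76 in the knockdown and 7.87 in the control. The protease TPP1 (-0.04 ± 0.20), the sulfatase ARSB (-0.07 ± 0.15), the fucosidase FUCA2 (-0.04 ± 0.22) and legumain, LGMN (-0.01 ± 0.20), lay near the median gene. The ceramidase ASAH1 (0.27 ± 0.47) and the thioesterase PPT2 (0.29 ± 0.24) lay somewhat above it. In deposited values all 14 were higher in the knockdown, on arrays where 16.6% of all 2742 genes were lower, so nothing particular to the list is read from it. The list holds TXNDC11, an endoplasmic reticulum protein that is no lysosomal enzyme, at -0.06 ± 0.25.

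NPC1, the membrane partner of NPC2, was measured by 21 probe sets and lay at -0.03 ± 0.30, with a mean log2 intensity of 9.94 in the knockdown and 9.69 in the control. In deposited values it was higher by 0.26, while NPC2 was lower by 0.34. LAMP2, a major lysosomal membrane protein, lay at -0.15 ± 0.38. ABCA2, a lipid transporter of late endosomes and lysosomes, was lower by 0.67 ± 0.39 at all of 19 probe sets, with 7.71 and 8.09. The 7 genes of lysosomal membrane and cholesterol export had a median of 0.0027, with 3 below the median gene and 4 above. Of the pair that passes cholesterol out of the lysosome, the soluble member was the one that was lower.

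None of the 18 genes of retromer, endosomal retrieval and trans-Golgi adaptors was past 1.5-fold, and their median was 0.02. PLIN3, known also as TIP47 and described as a partner of mannose-6-phosphate receptors, was lowest at -0.56 ± 0.15, with all of its 10 probe sets below the median gene. The retromer subunit VPS26A (-0.14 ± 0.39) and the retromer-linked SNX3 (-0.18 ± 0.24) and SNX27 (0.27 ± 0.33) lay on both sides of it. The same held for the AP-1 subunits AP1B1 (0.23 ± 0.26) and AP1S1 (-0.32 ± 0.29). STX16, a SNARE of transport from endosomes to the trans-Golgi network, was highest at 0.35 ± 0.21. In deposited values the median of the 18 was 0.30.

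Of 12 other genes of the clathrin coat and its adaptors, none was past 1.5-fold either, and their median was -0.02. The clathrin heavy chain CLTC lay at -0.02 ± 0.19 over 37 probe sets, and MYO6, the motor that DAB2 binds, at -0.01 ± 0.31 over 36. AP2A1, a subunit of the AP-2 adaptor that DAB2 also binds, lay at 0.17 ± 0.34 over 22. ITSN1 (-0.08 ± 0.24), GIPC1 (-0.18 ± 0.27), SYNJ2 (-0.09 ± 0.32) and NECAP2 (0.09 ± 0.34) were similar. The phosphatase INPPL1 had the lowest value, -0.47 ± 0.27. DAB2, at -0.98, was the lowest gene of this list, but it was picked from this contrast, so nothing is read from that.

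Of the listed endocytic cargo receptors, 6 were in the table. All 6 lay below the median gene and 3 were at least 1.5-fold lower, with a median of -0.37. Of all genes with at least 4 probe sets, 49.7% and 3.57% were. LRP1, a large receptor for lipoprotein remnants and proteases, was lower by 0.60 ± 0.17 at 97 of 98 probe sets, with a mean log2 intensity of 9.28 in the knockdown and 9.59 in the control. LRP5, a Wnt co-receptor of the same family, was lower by 0.63 ± 0.25 at all of 19, with 8.95 and 9.29. PLAUR, the urokinase receptor that LRP1 helps to internalise, was lower by 0.88 ± 0.34 at all of 6, with 7.22 and 7.82, which are dim signals. LRP8 (-0.15 ± 0.16), the transferrin receptor TFRC (-0.01 ± 0.18) and TFR2 (-0.04 ± 0.28) lay nearer the median gene. In deposited values LRP1, LRP5 and PLAUR were lower and the other 3 higher.

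**Figure D4:**
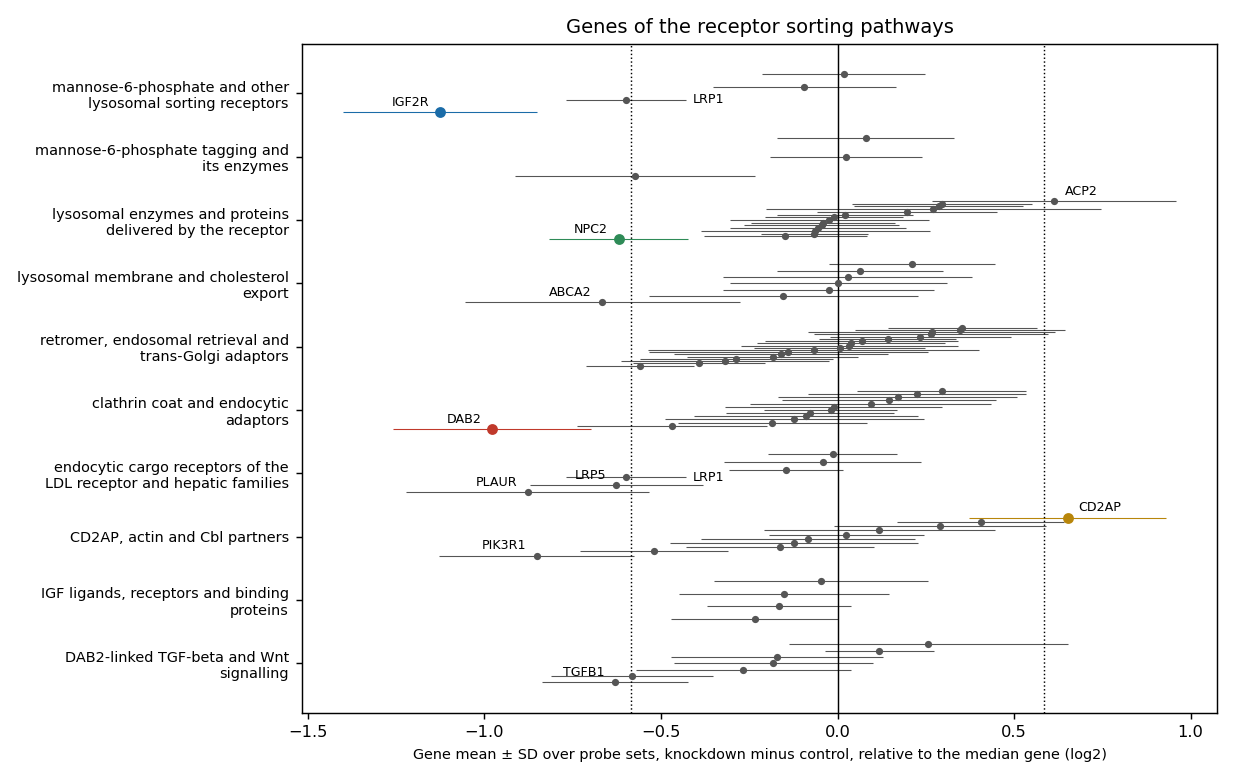
Mean difference between knockdown and control relative to the median gene (log2), with the SD over probe sets, for listed genes with at least 4 probe sets in 10 lists; dotted lines mark 1.5-fold, and genes past them are named. LRP1 stands in 2 lists. Most points lie between the dotted lines, with IGF2R, DAB2, NPC2, LRP1, LRP5, PLAUR, ABCA2, PIK3R1 and TGFB1 to the left and ACP2 and CD2AP to the right.

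Among 9 partners of CD2AP, none was at least 1.5-fold higher relative to the median gene and 1 was lower, with a median of -0.08. CAPZA1, a subunit of the actin capping protein that CD2AP binds, came closest at 0.41 ± 0.24, above the median gene at 10 of 11 probe sets, with 10.23 in the knockdown and 9.54 in the control. In deposited values it was higher by 0.69 and past 1.5-fold. The ubiquitin ligase CBL lay at 0.12 ± 0.33, the actin regulator WASL at 0.29 ± 0.30 and anillin, ANLN, at 0.03 ± 0.22. Of the 9 partners, 5 lay below the median gene and 4 above it. Those below included ARAP1 at -0.52 ± 0.21, with all of 22 probe sets below. SPATA13 (-0.16 ± 0.27), ARPC3 (-0.12 ± 0.35) and ASAP2 (-0.08 ± 0.30) lay nearer to it. PIK3R1, the regulatory subunit of phosphoinositide 3-kinase that CD2AP can bind, was lower by 0.85 ± 0.28 at all of 16 probe sets, with 7.97 and 8.54. CD2AP and PIK3R1 thus differed in opposite directions.

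On the growth factor side, 4 genes of the IGF list had at least 4 probe sets. All 4 lay below the median gene and none past 1.5-fold: IGF2BP2 at -0.17 ± 0.20, SHC1 at -0.15 ± 0.30, GRB10 at -0.23 ± 0.24 and GAB1 at -0.05 ± 0.30. Of all genes with at least 4 probe sets, 49.7% lay below it. In deposited values all 4 were higher in the knockdown, where 16.6% of all genes were lower. IGF2, the ligand that IGF2R clears, had 2 probe sets and mean log2 intensities of 7.94 in the knockdown and 8.36 in the control. Its difference was -0.71 ± 0.36 relative to the median gene, and with so few probe sets it entered no count. Of 7 genes of TGF-beta and Wnt signalling linked to DAB2, 5 lay below the median gene and 2 above. Among them, TGFB1 was lower by 0.63 ± 0.21 at all of 8 probe sets. The signal transducer SMAD3 lay just inside the 1.5-fold line at -0.58 ± 0.23, below the median gene at all of 14, and SMAD2 lay at 0.12 ± 0.15. The receptor TGFBR1 lay at -0.17 ± 0.30.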

How the data were processed

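Total RNA of 2 HepG2 cultures was hybridised to 1 Affymetrix exon array per group. The table holds deposited natural log intensities per probe set; the scale is not stated and was settled from the values. Under natural log, 1154 of 41367 knockdown values below 2000 fell in 1 residue bin of width 0.001 modulo 0.5 (mean 82.7 per bin), against at most 117 (mean 90.4) under log2. Per the labels' protocols, RNA was isolated with Trizol and amplified and labelled with whole-transcript kits. Normalization, summary method, build and detection calls: not given in the sources used here.

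Values were divided by the natural log of 2. Groups came from the transfection label. Of the probe sets, 42575 had 1 symbol; of 2795 symbols, 331 were updated through the RefSeq table of GRCh38.p14 and 15 kept as listed. The gene value is the mean difference over probe sets, minus the median over 2792 genes. Folds of 1.5 and 2 served as counting lines. Intensity depends on each probe's own affinity, so the level of the median gene served only as a rough line between bright and dim genes. Beyond that line, levels of different genes were not compared. Named genes were the 4 members, listed genes past 1.5-fold or at or above the level of the median gene, and the 3 genes nearest to each member. UAP1, CBL, WASL, INPPL1, MYO6, VPS45, LRP8, TFR2, GRB10, GAB1, IGF2, SMAD3, GNPTAB and GNPTG, which lie below that level, were added for their role after their values were seen. ARAP1 and SPATA13, also below that level, were added so that every counted partner of CD2AP is named. The members and lists were chosen with earlier results of these data known. The gene means were tested on simulated data. There each probe set had its own independent noise and no error was shared by an array or a culture, so only the calculation was checked. No interval was computed, since 1 array per group limits the precision. Python 3.11.15, pandas 2.3.3, numpy 2.4.6 and statsmodels 0.14.6 were used.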

Additional observations from a re-analysis of the deposited data

How the results depend on the processing

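The mean differences of IGF2R, DAB2, NPC2 and CD2AP kept their direction under all 11 alternatives, within -1.16 to -0.78, -1.09 to -0.68, -0.67 to -0.34 and 0.45 to 0.94. IGF2R and DAB2 stayed past 1.5-fold in all 11, CD2AP in 10 and NPC2 in 8. Without centring on the median gene the values were -0.84 for IGF2R, -0.69 for DAB2, -0.34 for NPC2 and 0.94 for CD2AP, by construction 0.28 higher. With values read as log2 instead of natural log, IGF2R was -0.78 and DAB2 -0.68, and NPC2 (-0.43) and CD2AP (0.45) lay inside 1.5-fold. NPC2 also did so without the brightest 10% of probe sets (-0.52 over 3). The 98 lower and 63 higher genes of 2742 became 188 and 144 by the brightest probe set, 25 and 359 without centring, and 29 and 16 read as log2. Among the 1373 genes at or above the median level there were 44 and 34. Among the 1804 genes with at least 10 probe sets there were 61 lower. Fewer genes were counted in these last settings, so their counts do not compare directly with 98 and 63. Spread was judged by the SD over probe sets. No paired analysis was possible because each group has 1 array, and leaving out a replicate could not be run. Without probe sets under the median level, DAB2 was -1.09 over 9 and NPC2 -0.67 over 4.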
